A study of Mus musculus with 8 samples.

Results

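Tfap4 and 9 genes of the MYC-MAX network (Myc, Mycn, Max, Mnt, Mga, Mxi1, Mxd4, Mxd3 and Mlx) were followed across mouse embryonic stem cells with and without the microRNA cluster that starts with miR-290a and ends with miR-295. The 10 genes were chosen by name, as basic helix-loop-helix leucine-zipper (bHLH-zipper) factors that bind E-boxes, from 55421 gene identifiers, and all 10 were among the 15137 genes kept by the filter on low counts. The cells were of the E14 line (129/Ola background), grown on gelatin in serum with LIF. The 4 groups held 2 biological duplicates each: untreated cells with the cluster knocked out (KO), untreated wild-type cells (WT), KO cells that received a siPOOL (a mixture of many small interfering RNAs) directed at Tfap4, at 5 nM for 36 hours (siTfap4), and KO cells that received a negative control siPOOL at the same concentration and time (siNeg). KO and WT libraries formed one preparation and sequencing set and the siPOOL libraries another. Both siTfap4 and siNeg cells carry the knockout. KO was compared with WT and siTfap4 with siNeg, and these comparisons share no library. The duplicates of KO and of WT carry different tags in their labels, KO 2 and WT 1 share one, and what the tags stand for is not stated in the labels.

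E-box factors of this class bind DNA as dimers. MYC and MYCN activate genes as heterodimers with MAX, while MNT, the MXD proteins (MXI1 is one of them) and MGA compete for MAX and repress, and MLX pairs with the MLXIP and MLXIPL glucose sensors and with MNT and MXD4. TFAP4 forms homodimers, prefers CAGCTG over the CACGTG core of MYC-MAX, and is known as a MYC-induced gene in human cells. In mouse embryonic stem cells MYC and MYCN overlap in function, and MGA with MAX keeps meiotic and germline genes silent.

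The cluster's microRNAs are shown because 3 of them share 1 seed (bases 2 to 8, in capitals), which pairs with the word AGCACTT in messenger RNA. The sequences are from RefSeq (GRCm38.p6), run 5′ to 3′, and lie on the plus strand of chromosome 7.
mmu-miR-291a-3p: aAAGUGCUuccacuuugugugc
mmu-miR-294-3p: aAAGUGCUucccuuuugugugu
mmu-miR-295-3p: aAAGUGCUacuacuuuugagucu
miR-290a-3p and miR-291b-3p differ from these only in the last seed base, which gives the words GGCACTT and TGCACTT.

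Matches to these words in the longest annotated 3′ UTR (GENCODE vM21, GRCm38) are shown for the genes that rose in KO cells, Tfap4 and Mycn, and for Mga, whose UTR holds the same 8-base word and which was not called. Capitals mark the match, and the sequence runs 5′ to 3′ on the gene's strand. An 8-base match is the 7-base word followed by A.
Tfap4, minus strand, chr16:4545084-4545113: tctttttctcttttaAGCACTTAcatgggt
Mycn, minus strand, chr12:12936132-12936161: agtgctgcaccttagAGCACTTtgaaatac
Mga, plus strand, chr2:119965435-119965464: cacacttgtaattccAGCACTTAgaagact
Of the 10 genes, 7 held a match of 7 or 8 bases (70%), against 29.1% of 21167 annotated 3′ UTRs. The median 3′ UTR length was 1170.5 bases for the 10 genes and 1085 bases for all. The lengths were uneven, with 4616 bases for Mga, 4074 for Mxi1, 3105 for Mxd4 and 2405 for Mnt. The others ran from 466 (Myc) to 1299 bases (Max). The part of length in the share with a match was not tested. The 8-base word AGCACTTA occurs in 3.03% of all 3′ UTRs. Tfap4 holds it 1 time and Mga 2 times. Mxi1 held 4 matches, Mga 3, Mnt 2, and Tfap4, Mycn, Mxd4 and Mxd3 held 1 each, while Myc, Max and Mlx held 0. A match is a description of the letters and not a measured site.

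Promoter windows of 250 bases before to 50 bases after the start (RefSeq, GRCm38.p6) were available for 8 of the 10 genes, all but Tfap4 and Myc. The E-box CACGTG, searched on both strands (it reads the same on each), was found in the windows of Max, Mnt, Mxd4 and Mlx, against 8.09% of 27025 genes with a window. The TFAP4-type E-box CAGCTG was found in the window of Mga, against 18.3% of those genes. The general form CANNTG, which includes both words, was found in 7 of the 8 genes and in 75% of all genes with a window. The windows of Max and of Mycn are shown because these genes were lower after Tfap4 knockdown. Max holds a CACGTG (in capitals) whose first base lies 3 bases before the start, so the word spans the start. Mycn holds neither word.
Max, minus strand, chr12:76962199-76962498: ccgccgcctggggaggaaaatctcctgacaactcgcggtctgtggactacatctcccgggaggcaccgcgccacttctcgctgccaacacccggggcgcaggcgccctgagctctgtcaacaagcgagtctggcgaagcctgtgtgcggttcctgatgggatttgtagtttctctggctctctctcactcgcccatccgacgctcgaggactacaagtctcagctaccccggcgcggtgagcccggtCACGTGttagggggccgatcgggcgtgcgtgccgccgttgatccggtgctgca
Mycn, minus strand, chr12:12941787-12942086: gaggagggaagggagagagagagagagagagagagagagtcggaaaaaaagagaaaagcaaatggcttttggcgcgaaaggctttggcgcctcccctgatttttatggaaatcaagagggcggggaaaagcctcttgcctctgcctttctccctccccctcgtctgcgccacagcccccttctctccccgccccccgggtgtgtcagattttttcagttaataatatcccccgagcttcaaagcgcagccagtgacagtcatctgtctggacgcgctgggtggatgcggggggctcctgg

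Library totals lay between 8326675 and 12726123 counts. The transcripts of the cluster gave 88 and 39 counts in WT libraries and 0 in each of the 6 libraries of KO cells, where 0 allows up to 3 counts in a library. The summed level of 7 embryonic stem cell markers was 2678 to 2791 library-scaled counts (CPM) in KO, 2479 to 2581 CPM in WT, 1944 to 1964 CPM in siTfap4 and 2544 to 2672 CPM in siNeg, and all 7 had counts. Markers of other cells differed between the untreated groups. Over all tested genes 5.99% were called higher and 3.96% lower in KO, at an adjusted p under 0.05 in edgeR. The 6 extra-embryonic endoderm markers summed to 19.6 to 23.2 CPM in KO and 154.0 to 169 CPM in WT, and 5 of the 6 fell in KO cells, led by Col4a1, Dab2, Gata6 and Lama1 (log2 fold changes of -3.96, -4.39, -3.34 and -2.25). The 6 fibroblast or feeder markers summed to 10.4 to 20.4 CPM in KO and 33.2 to 53.3 CPM in WT, with Col3a1 at 0 in all 8 libraries, and Pdgfra, Thy1 and Col1a1 fell (-3.62, -1.35 and -2.20), where leaving out KO 1 or WT 2 ended the call of Thy1, and leaving out any single library ended the call of Col1a1. Of 5 tested neural markers, Pax6 rose in KO (log2 fold change 5.11). In siTfap4 against siNeg 0 genes of these 3 lists were called by edgeR (0, 1 and 2 fibroblast, endoderm and neural genes at an unadjusted p under 0.05), and DESeq2 called 2 neural genes, Pax6 lower and Nes higher, both also called without siTfap4 2. Pax6 was called lower with no filter, with the replicate block and without siNeg 1 as well. The most abundant of them, Thy1, Pdgfra, Lama1, Col4a1, Tubb3 and Pax6, had log2 fold changes of -0.42, -0.08, 0.68, -0.21, -0.23 and -1.08. In the siPOOL set base composition moved with the groups. Per 10 percentage points of GC in a gene's last 100 bases, log2 CPM changed by 0.34 and 0.23 in siTfap4 libraries and by -0.14 and 0.04 in siNeg libraries, while the 4 untreated libraries lay between -0.14 and -0.08. A fit corrected for this GC content was added after seeing the data. Its values are given where it ended or added a call of a listed gene or moved a fold by over 1.5 times, and for some other genes. Genes named because such a fit added a call were chosen after their values were seen.

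In KO cells 2 of the 10 genes were called higher than in WT, Tfap4 and Mycn, and 0 were called lower, at an adjusted p under 0.05. Over all tested genes 9.95% were called, 5.99% higher and 3.96% lower in KO. The 2 groups did not overlap for 7 of the 10 genes, of which 6 were higher and 1 lower in KO, and the background share of genes with no overlap was 57.5% (28.9% higher and 28.6% lower). The median log2 fold change was 0.39 over the 10 genes and -0.01 over all tested genes.

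Tfap4 (ENSMUSG00000005718, chromosome 16, 4544661 to 4559854, minus strand) had 49.0 and 42.1 CPM in KO libraries, against 19.7 and 16.4 CPM in WT libraries. Both KO libraries lay above both WT libraries. The fold was 2.52 (log2 fold change 1.33, SE 0.26, adjusted p = 0.00363). The call did not hold without KO 1 (log2 fold change 1.22, adjusted p = 0.0533). In bulk RNA, a change in the share of expressing cells and a change in RNA per cell cannot be told apart.

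Mycn (ENSMUSG00000037169, chromosome 12, 12936093 to 12941914, minus strand), the MYC paralog with the larger share of tags in these cells, had 199.9 and 176.5 CPM in KO, against 103.0 and 67.4 CPM in WT. The groups did not overlap, and the WT libraries lay 1.53-fold apart. The fold was 2.21 (log2 fold change 1.14, SE 0.33, adjusted p = 0.0362). This call rested on single libraries. It was lost without KO 1, KO 2, WT 2, siNeg 1 or siNeg 2, with adjusted p between 0.0693 and 0.247.

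Myc (ENSMUSG00000022346, chromosome 15, 61985391 to 61990374, plus strand) had 10.1 and 16.3 CPM in KO, against 42.6 and 14.8 CPM in WT. KO 2 lay above WT 2, so the groups overlapped, and the log2 fold change of -1.13 was not called (95% interval -2.41 to 0.15). Without WT 1 the log2 fold change was -0.16. Of the Myc and Mycn tags together, Mycn made up 95.2% and 91.5% in KO and 70.8% and 82.0% in WT. The 95% Wilson intervals, which cover counting error only, ran from 90.3% to 95.9% over the KO libraries and from 68.6% to 84.4% over the WT libraries. Each transcript end gives a tag whatever the transcript's length, but the ends of Myc and Mycn differ in base composition (14% and 27% GC in the last 100 bases), so these shares compare libraries and are not ratios of molecules.

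Max (ENSMUSG00000059436), the shared partner, had 206 and 202 CPM in KO, against 174 and 155 CPM in WT. The groups did not overlap, yet the log2 fold change of 0.31 was not called (95% interval -0.24 to 0.86). Among the repressive partners, Mnt had 44.2 and 47.2 CPM in KO and 33.6 and 31.5 CPM in WT (log2 fold change 0.49). Mxi1 had 54.1 and 56.9 CPM in KO and 39.9 and 42.3 CPM in WT (log2 fold change 0.43). Mxd3 had 13.1 and 13.3 CPM in KO and 6.34 and 9.11 CPM in WT (log2 fold change 0.78, adjusted p = 0.18). For these 3 repressors the KO libraries lay above the WT libraries without a call. Mxd4 overlapped between the groups, with 9.02 and 14.5 CPM in KO and 13.5 and 4.75 CPM in WT. Mga, the scaffold of the PRC1.6 repressor complex, had 228 and 234 CPM in KO and 220 and 231 CPM in WT, and its 95% interval ran from -0.49 to 0.56 on the log2 scale. Mlx was the gene whose KO libraries lay below its WT libraries, at 40.0 and 39.3 CPM in KO and 51.4 and 46.6 CPM in WT (log2 fold change -0.31, adjusted p = 0.512).

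**Figure D1:**
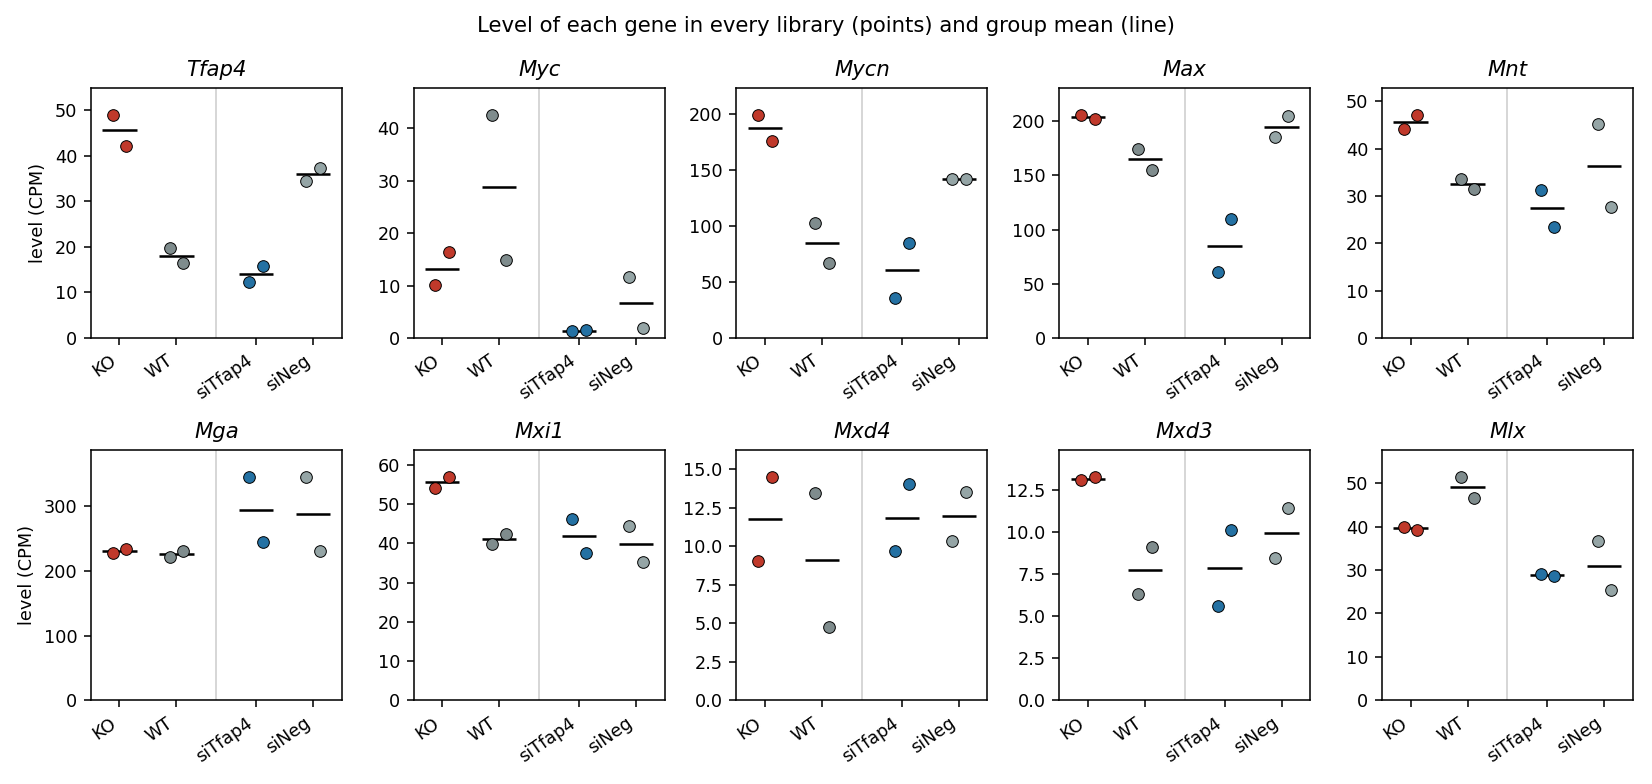
Level of each of the 10 genes in CPM in every library (points; linear axis from 0, scaled per gene) with the group mean (line), for KO, WT, siTfap4 and siNeg; the grey line parts the 2 library sets. Tfap4 lies between 42.1 and 49.0 CPM in KO and between 16.4 and 19.7 CPM in WT, and Myc spreads from 14.8 to 42.6 CPM within WT.

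In siTfap4 cells 3 of the 10 genes were called lower than in siNeg, Tfap4, Mycn and Max, and 0 were called higher. Over all tested genes 15.4% were called, 4.36% higher and 11.1% lower in siTfap4. The groups did not overlap for 4 of the 10 genes, each lower in siTfap4, against a background of 58.3% (28.9% higher and 29.3% lower). The median log2 fold change was -0.37 over the 10 genes and 0.01 over all tested genes.

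Tfap4, the target of the pool, had 12.4 and 15.8 CPM in siTfap4, against 34.4 and 37.4 CPM in siNeg. The groups did not overlap. Tfap4 was 2.54-fold lower in siTfap4 (log2 fold change -1.35, SE 0.27, adjusted p = 0.00365), and with the correction for GC the log2 fold change was -1.06 (adjusted p = 0.0142). The call was lost without siTfap4 1 (log2 fold change -1.19, adjusted p = 0.0575).

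Max had 60.8 and 110 CPM in siTfap4, against 186 and 204 CPM in siNeg. Both siTfap4 libraries lay below both siNeg libraries and differed 1.80-fold from each other. Max was 2.29-fold lower in siTfap4 (log2 fold change -1.19, SE 0.26, adjusted p = 0.00706), and the corrected log2 fold change was -0.96 (adjusted p = 0.0204). Without siTfap4 1 the log2 fold change was -0.84 and the call was lost (adjusted p = 0.087), and without siTfap4 2 it was -1.70.

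Mycn had 35.5 and 85.3 CPM in siTfap4, against 142.5 and 142.4 CPM in siNeg. The groups did not overlap, and the siTfap4 libraries differed 2.40-fold from each other. Mycn was 2.35-fold lower in siTfap4 (log2 fold change -1.24, SE 0.33, adjusted p = 0.021). The call was lost with the correction for GC (log2 fold change -0.80, adjusted p = 0.0951). With that correction and the replicate block together Mycn was called lower (log2 fold change -0.89, adjusted p = 0.0279), so the 2 corrected fits differed. The uncorrected call had a further limit. This call was also lost without siTfap4 1 (log2 fold change -0.75), siNeg 1 or siNeg 2, and without siTfap4 2 the log2 fold change was -2.02.

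Myc had 10 and 13 counts in siTfap4, which is 1.27 and 1.53 CPM, against 135 and 20 counts in siNeg, which is 11.6 and 1.94 CPM. The siTfap4 libraries lay below the siNeg libraries, whose duplicates differed 5.98-fold. The log2 fold change of -2.28 was not called (SE 0.90, adjusted p = 0.11), and with the correction for GC it was -1.53 (adjusted p = 0.228). It was -0.47 without siNeg 1, and without siNeg 2 it was -3.04 with an adjusted p of 0.0179. Mycn made up 96.5% and 98.2% of the Myc and Mycn tags in siTfap4 and 92.5% and 98.7% in siNeg, so these shares overlapped.

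The other 6 genes were not called and overlapped between siTfap4 and siNeg. The repressors Mnt, Mxd3 and Mxd4 had log2 fold changes of -0.41, -0.33 and -0.01. Mga had 344 and 244 CPM in siTfap4 and 345 and 231 CPM in siNeg, so that replicates 1 and 2 differed by more than the groups did. Its log2 fold change of 0.03 became -0.22 with the correction for GC. Mxi1 had a log2 fold change of 0.07 (0.43 corrected). Mlx had 29.2 and 28.7 CPM in siTfap4 and 36.6 and 25.5 CPM in siNeg, and its log2 fold change of -0.10 became 0.41 with the correction (adjusted p = 0.27). The intervals are wide: for Mga the 95% interval was -0.50 to 0.56 and for Mxd4 -0.89 to 0.88 on the log2 scale, so smaller changes were not detectable here.

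The 3 genes that fell have AT-rich ends, and so have some that were not called. The GC content of the last 100 bases was 31% for Tfap4, 27% for Mycn and 32% for Max, against a median of 37% over tested genes. Among genes not called it was 14% for Myc, 26% for Mlx and 30% for Mxi1. The log2 fold changes of Mlx and Mxi1 were -0.10 and 0.07. Over the 10 genes, GC content and the log2 fold change of siTfap4 against siNeg had a Pearson r of 0.73, and over 15081 tested genes an r of 0.35. In KO against WT these values were 0.44 and -0.02. The points share their libraries, and these are descriptions.

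**Figure D2:**
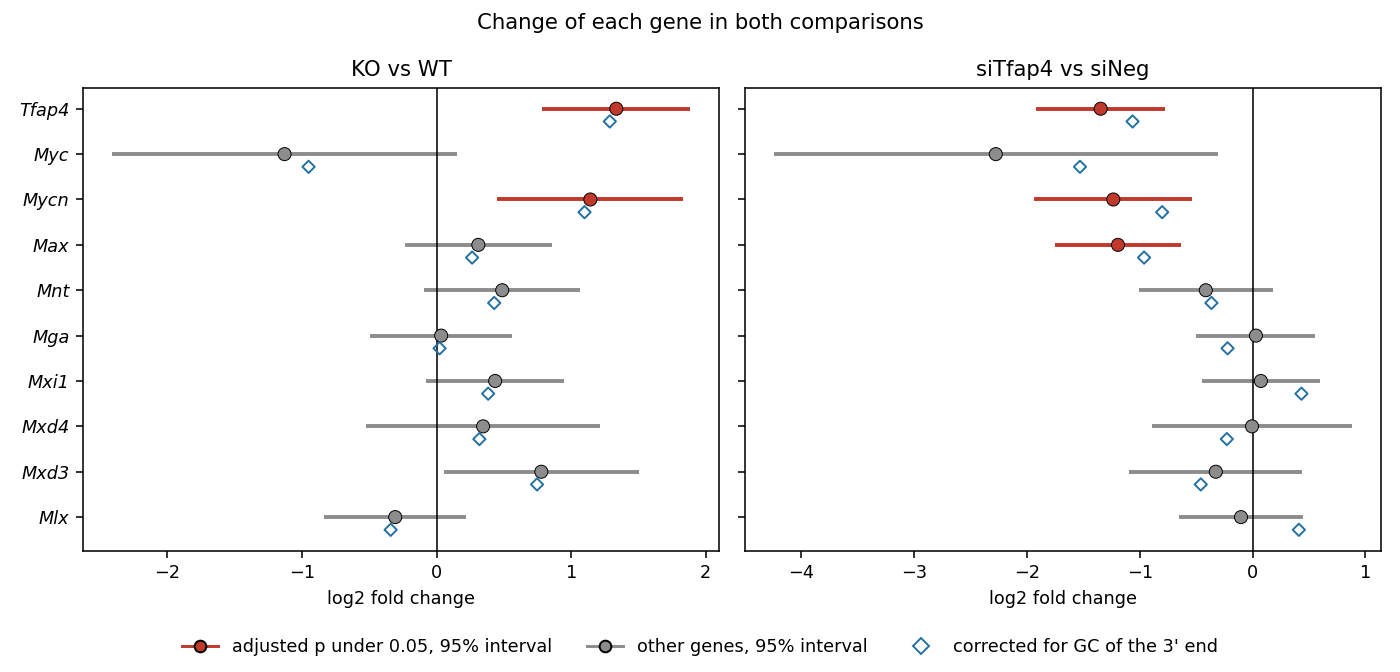
Log2 fold change of each gene (circles; bars are 95% intervals; red where the adjusted p is under 0.05) in KO against WT (left) and siTfap4 against siNeg (right), with the value corrected for the GC content of the 3′ end as blue diamonds. In the right panel the corrected values of Tfap4, Mycn and Max lie nearer to 0, at -1.06, -0.80 and -0.96, while the corrected values in the left panel stay close to the circles.

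**Figure D3:**
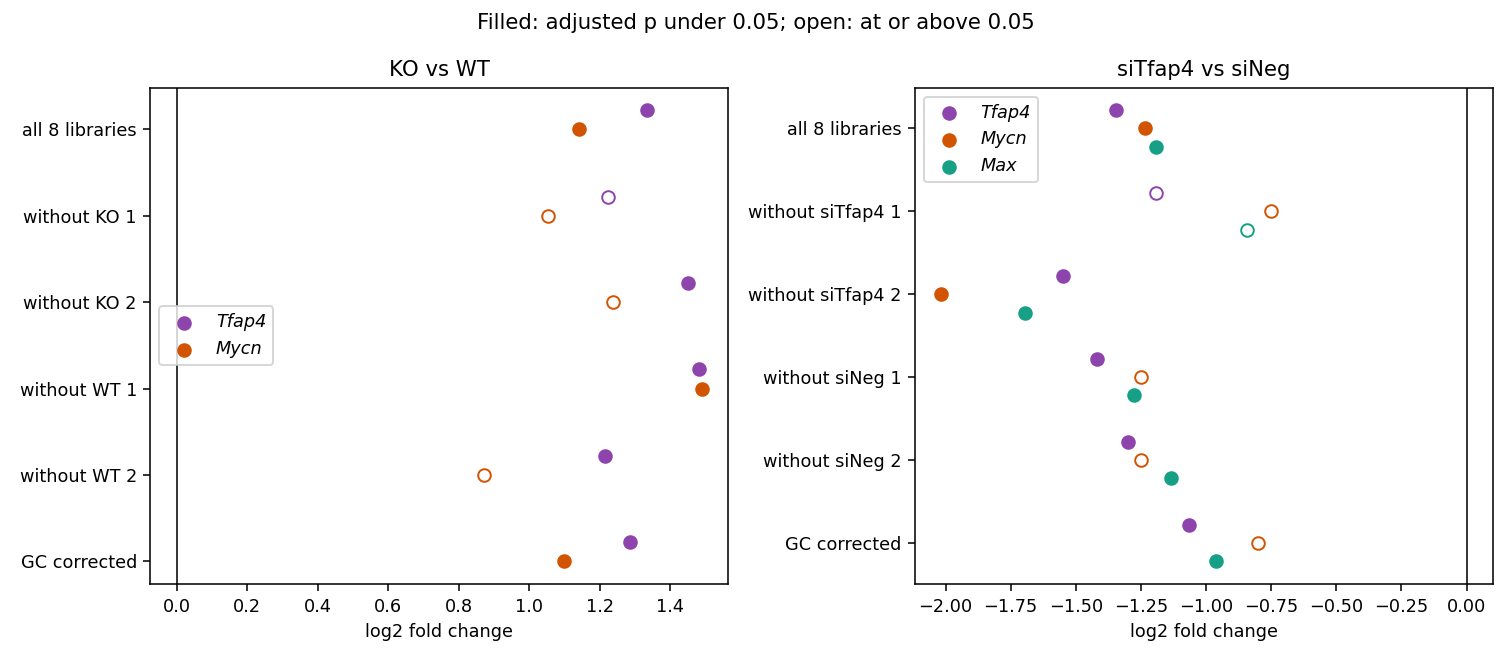
Log2 fold change of the called genes when each library of the comparison is left out in turn and with the correction for GC (filled, adjusted p under 0.05; open, at or above it), in KO against WT (left) and siTfap4 against siNeg (right). Without siTfap4 1 all 3 values in the right panel are open, and Mycn ranges from -2.02 to -0.75.

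Across the 4 groups the order of Tfap4 was KO (45.5 ± 4.9 CPM), siNeg (35.9 ± 2.1), WT (18.0 ± 2.3) and siTfap4 (14.1 ± 2.4; SD, n = 2 each), and no neighbours in this order overlapped. Mycn took the order KO, siNeg, WT and siTfap4 as well, with means of 188, 142, 85.2 and 60.4 CPM, and its WT and siTfap4 libraries overlapped. Max ran from KO (204 CPM) and siNeg (195 CPM), which overlapped, to WT (165 CPM) and siTfap4 (85.2 CPM). Myc was ordered WT, KO, siNeg and siTfap4, where only siNeg and siTfap4 did not overlap. For Mga and Mxd4 every pair of neighbours in the order overlapped. Order between the untreated and the siPOOL groups was not tested, because transfection and library set cannot be told apart.

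The genes whose profile was most like that of Tfap4 were found by Pearson correlation of log2 CPM over the 8 libraries, with each set of 4 centred on its own mean, among 8635 genes with a mean of at least 10 CPM. They were Flvcr1, a heme and choline transporter (r = 0.994), Uhrf1bp1l (0.993), Cemip2, a membrane hyaluronidase (0.991), Brpf3, a scaffold of histone acetyltransferases (0.988), and Wdr13 (0.988). The least like were Prpf38a, a splicing factor (-0.985), and Traip, a replication-linked ubiquitin ligase (-0.981). Brpf3 had 119 and 71.6 CPM in KO, against 29.6 and 18.6 CPM in WT, and 26.4 and 43.1 CPM in siTfap4, against 119.7 and 117.0 CPM in siNeg. These 4 groups separate as those of Tfap4 do within each set. Uhrf1bp1l was not called in KO or siTfap4 (adjusted p = 0.173 and 0.0726), nor Wdr13 in siTfap4 (adjusted p = 0.083). Of the genes most like Tfap4, Brpf3 alone was called in siTfap4 with the correction for GC (log2 fold change -2.01, adjusted p = 0.0015). An r of 0.9 or more was reached by 221 genes (2.56%). Mycn stood at rank 93 (r = 0.94), Max at 532 (0.83) and Mnt at 1825 (0.64), while Mga, Mlx, Myc, Mxi1 and Mxd4 had values between -0.33 and 0.36. These correlations carry no p-value, since 8 libraries in 4 groups are few points.

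The other genes of the pathway were taken from lists of partners, relatives and targets. The counts called in these lists stand beside the shares over all tested genes. These were 5.99% higher and 3.96% lower in KO, and 4.36% higher and 11.1% lower in siTfap4, where lower calls were the more common kind in general. Beside the 10 genes, the network holds Mycl, Mxd1, Mlxip and Mlxipl, and 0 of these 4 were called in either comparison by edgeR, DESeq2 or limma-voom, with 0 at an unadjusted p under 0.05. Mlxip, the MLX partner also called MondoA, averaged 12.7 ± 1.0 CPM in KO and 19.0 ± 2.4 CPM in WT (SD, n = 2 each), and Mxd1 had 4.33 and 4.60 CPM in siTfap4 and 6.34 and 7.65 CPM in siNeg.

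Of 8 other bHLH-zipper E-box factors, 0 were called in KO against WT by edgeR, DESeq2 or limma-voom (3 at an unadjusted p under 0.05), where the most abundant were Usf2 (log2 fold change 0.38) and Srebf2 (-0.41). Mitf, a factor of melanocyte development, had a log2 fold change of 0.81 (adjusted p = 0.0728), and edgeR called it higher with the replicate block, with the 4 untreated libraries alone and without either siTfap4 library. In siTfap4 2 of the 8 were called lower, against 11.1% of all tested genes. Usf1, a ubiquitous CACGTG-binding factor, had 5 and 3 counts in siTfap4 (0.637 and 0.354 CPM), against 105 and 67 counts in siNeg (8.997 and 6.485 CPM), a log2 fold change of -3.95 (adjusted p = 0.000188). Srebf1, a regulator of lipid synthesis, had 0.637 and 2.24 CPM in siTfap4, against 30.3 and 11.0 CPM in siNeg, a log2 fold change of -3.82 (adjusted p = 0.00041). Both calls held with each library left out and with the correction for GC. Without siTfap4 2, Usf2 and Tfeb were also called, both higher (log2 fold changes of 1.04 and 1.02, against 0.69 and 0.64 with all libraries).

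Of 10 bHLH factors and ID proteins, which sequester bHLH partners, 2 were called higher and 1 lower in KO. Id2 had 43.2 and 154.0 CPM in KO, against 25.1 and 18.1 CPM in WT, so KO 2 stood above the other 3 libraries (log2 fold change 2.18, adjusted p = 0.0097). Tcf12, an E protein, was 1.91-fold higher in KO, and Tcfl5, a germ-cell bHLH factor, was 2.53-fold lower. The median of the list was 0.91 on the log2 scale, against -0.01 over all genes. Without KO 2 or without WT 1, 0 of the 10 were called. The call of Tcf12 was also lost without KO 1 or WT 2, and that of Id2 without WT 2. In siTfap4 2 of the 10 were called lower, Id3 (log2 fold change -2.15, adjusted p = 0.0442) and Bhlhe40 (-1.37, adjusted p = 0.0465). With the correction for GC the log2 fold changes were -1.73 and -1.32 and neither was called (adjusted p = 0.0886 and 0.0667). Neither call held without siTfap4 1 or without siNeg 1. That of Id3 was also lost without WT 1, WT 2 or siNeg 2, and that of Bhlhe40 without KO 1, KO 2 or siTfap4 2.

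Germline genes that MGA-MAX is known to repress were lower in KO cells: 8 of 14 were called lower and 0 higher, with a median log2 fold change of -1.34, against -0.01 over all genes and 3.96% of them called lower. Dazl, a germ-cell RNA-binding protein, had 14.9 and 15.3 CPM in KO, against 37.5 and 67.9 CPM in WT (log2 fold change -1.80, adjusted p = 0.00427). Meioc, a meiotic regulator, had 6.96 and 4.29 CPM in KO, against 17.3 and 23.0 CPM in WT (log2 fold change -1.83, adjusted p = 0.00212). Stk31 and the meiotic cohesin gene Smc1b had log2 fold changes of -1.82 and -1.55 (adjusted p = 0.00724 and 0.00875). Stra8, another gene of the list, went the other way. The replicate block and the fit of the 4 untreated libraries alone each called 8 of the 14 lower and Stra8 higher (log2 fold change 0.93 in both). Mga and Max themselves were not called in this comparison. Without KO 1, KO 2, WT 1 and WT 2 in turn, 3, 2, 5 and 2 of the 14 were called. Meioc was not called without KO 2, Dazl without WT 2, Stk31 without KO 1 or WT 2, and Smc1b without KO 2 or WT 2 (adjusted p up to 0.155). The endoderm and fibroblast markers given above moved the same way as these genes, and their part in the result was not tested. In siTfap4, where Max fell, 1 of the 14 was called higher and 0 lower. This gene was Taf7l, a germ-cell TFIID subunit paralog, with 10.3 and 6.37 CPM in siTfap4 and 2.66 and 3.87 CPM in siNeg (adjusted p = 0.034, and 0.0506 with the correction for GC), and it was not called without siTfap4 1, siNeg 1 or siNeg 2. The median of the list in siTfap4 was -0.49. DESeq2 called Dazl lower in siTfap4 (log2 fold change -1.11, adjusted p = 0.0457). The correction for GC with the replicate block called Stra8 higher there (log2 fold change 0.80).

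The partners of MGA in PRC1.6 were not called in KO (0 of 11 by edgeR, DESeq2 and limma-voom, 2 at an unadjusted p under 0.05). The most abundant, Cbx1 and Wdr5, had log2 fold changes of 0.07 and -0.24. In siTfap4 3 of the 11 were called lower and 0 higher, against 11.1% and 4.36% of all tested genes. Wdr5, a WD40 scaffold also found in MLL complexes, had 95.6 and 125 CPM in siTfap4, against 327 and 314 CPM in siNeg (log2 fold change -1.54, adjusted p = 0.000605). Tfdp1, the dimer partner of E2F factors, was 3.42-fold lower in siTfap4, and E2f6, the DNA-binding repressor of the complex, was 3.70-fold lower. All 3 calls held with the correction for GC, and that of E2f6 was lost without siTfap4 1 (adjusted p = 0.0873).

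In the lists of coactivators, corepressors and stability regulators 0 to 2 genes were called. Of 9 MYC coactivators and MIZ1, Ruvbl2, a helicase of the TIP60 complex, was called lower in KO (47.0 and 46.7 CPM in KO, 77.6 and 87.5 CPM in WT; adjusted p = 0.0473), and this call was lost without each of the 4 untreated libraries and without siNeg 2 (adjusted p up to 0.266). In siTfap4 Ruvbl2 was 2.33-fold lower and Hcfc1, a host cell factor that MYC binds, was 1.68-fold lower. The call of Ruvbl2 was lost without siTfap4 1 (adjusted p = 0.0798). That of Hcfc1 was lost with the correction for GC (log2 fold change -0.46, adjusted p = 0.164) and without KO 1, KO 2, siTfap4 1, siNeg 1 or siNeg 2 (adjusted p up to 0.209). The correction called 1 other coactivator, the scaffold Trrap, higher (log2 fold change 1.00, adjusted p = 0.0286, against 0.43 uncorrected). Of 9 SIN3 and NCOR corepressor genes 0 were called in KO by edgeR, DESeq2 and limma-voom (1 at an unadjusted p under 0.05), where the most abundant, Ncor1 and Rbbp4, had log2 fold changes of 0.33 and -0.14. With the 4 untreated libraries alone Sin3b was called higher (log2 fold change 0.59). Rbbp7, a histone chaperone, was called lower in siTfap4 (2.49-fold), and this call was lost without siTfap4 1 (adjusted p = 0.0703). Of 10 regulators of MYC protein stability 0 were called in KO by the same tools (2 at an unadjusted p under 0.05), where the abundant Usp7 and Plk1 had log2 fold changes of 0.13 and -0.14. With the 4 untreated libraries alone Fbxw7, a ubiquitin ligase subunit that binds MYC, was called lower (log2 fold change -0.75). Skp2, a ubiquitin ligase subunit, was 1.75-fold lower in siTfap4, and with the correction for GC its log2 fold change was -0.32 and was not called (adjusted p = 0.375). The call was also lost without KO 1, KO 2, siTfap4 1, siNeg 1 or siNeg 2 (adjusted p up to 0.158). Huwe1, a ubiquitin ligase of MYC, was called higher with the correction (log2 fold change 1.00, adjusted p = 0.0346, against 0.62 uncorrected). Without siTfap4 2, the log2 fold changes of Huwe1 and the kinase gene Gsk3b were 0.98 and 0.77, against 0.62 and 0.55 with all libraries.

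Of 20 MYC target genes, 1 was called higher and 0 lower in KO, with a median of -0.31 (9 at an unadjusted p under 0.05 by edgeR). The called gene was Ccnd2, a G1 cyclin, with 400.1 and 478 CPM in KO, against 17.4 and 15.7 CPM in WT, a 26.5-fold rise (adjusted p = 2.2e-07). In the fit of the 4 untreated libraries alone, Cdk4 (log2 fold change 0.57) was called higher beside Ccnd2. The same fit called Cad (-0.74) and Srm (-0.51) lower. Cad was also called lower by the correction for GC with the replicate block (-0.75). In siTfap4 1 of the 20 was called higher and 2 lower, with a median of 0.07. The lower ones were Ccnd1, another G1 cyclin (82.9 and 106 CPM in siTfap4, 220 and 241 CPM in siNeg), and Fbl, the nucleolar methyltransferase (17.2 and 39.5 CPM in siTfap4, 52.0 and 91.9 CPM in siNeg). The higher one was Pa2g4, a growth-regulated nucleolar protein (1.62-fold, adjusted p = 0.046), with a log2 fold change of 0.70, and of 0.64 without a call under the correction for GC (adjusted p = 0.0682). The call of Pa2g4 held without siTfap4 2 and was lost without any other 1 of the 8 libraries. Without siTfap4 1, 0 of the 20 were called, and the calls of Ccnd1 and Fbl were also lost without siNeg 1 (Ccnd1) and siNeg 2 (Fbl).

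Of 12 genes reported to respond to TFAP4, mostly in human tumour cells, 10 were tested and Cd44 and Lgr5 were not. In KO 2 of the 10 were called higher and 0 lower. Lef1, a WNT effector, had 9.25 and 7.67 CPM in KO, against 0.813 and 0.582 CPM in WT (adjusted p = 0.000311). Cdkn2a, which encodes the p16 and p19ARF growth inhibitors, had 32.8 and 37.7 CPM in KO, against 11.86 and 12.99 CPM in WT (adjusted p = 0.0126), and this call was lost without KO 2, WT 1 or WT 2 (adjusted p up to 0.0877). In siTfap4 1 of the 10 was called higher and 3 lower, against 4.36% and 11.1% of all tested genes. Cdkn1a, the p21 cell-cycle inhibitor that TFAP4 is known to repress in human cells, had 290.0 and 319 CPM in siTfap4, against 159.5 and 141 CPM in siNeg (log2 fold change 1.02, adjusted p = 0.0076, and 0.66 with an adjusted p of 0.0658 under the correction for GC). Vim, the mesenchymal filament vimentin, had 97.6 and 93.5 CPM in siTfap4, against 314 and 262 CPM in siNeg (adjusted p = 0.000355, and 0.00657 corrected). Cdkn2a was 3.06-fold lower in siTfap4, and Snai1, an inducer of mesenchymal transition, had 3 and 11 counts in siTfap4 against 58 and 39 counts in siNeg. The log2 fold change of Snai1 was -2.34, and -1.74 without a call under the correction (adjusted p = 0.056). The calls of Cdkn2a and Snai1 were lost without siTfap4 1 or siNeg 1. With the correction 2 of the 10 were called higher and 2 lower. The higher ones were Dicer1, the microRNA-processing enzyme (log2 fold change 0.90, against 0.63 uncorrected), and Lef1 (1.09, against 0.51 uncorrected), and Vim and Cdkn2a were lower.

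The stem cell markers moved in siTfap4 too: of 7, Pou5f1 was called higher and Dppa5a and Nanog lower. Pou5f1 had 59.0 and 48.4 CPM in siTfap4, against 25.2 and 27.7 CPM in siNeg, a level far below that of Nanog in siNeg. Dppa5a had 3.82 and 9.32 CPM in siTfap4, against 387 and 493 CPM in siNeg, and Nanog, a pluripotency factor, had 79.8 and 179 CPM in siTfap4, against 412 and 316 CPM in siNeg. The call of Nanog was lost without siNeg 1 (adjusted p = 0.0576) and that of Pou5f1 without siTfap4 1 or siNeg 1 (adjusted p up to 0.114), so that 1 of the 7 was called without siNeg 1. With the correction for GC all 3 were called, and Esrrb, a pluripotency receptor, was called lower as well (log2 fold change -0.85, adjusted p = 0.0214). In KO the chromatin-associated Utf1 was called lower (281 and 338 CPM in KO, 593 and 575 CPM in WT), a call that was lost without each of these 4 libraries (adjusted p up to 0.227). The part of these changes in the values of the 10 genes was not tested.

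**Figure D4:**
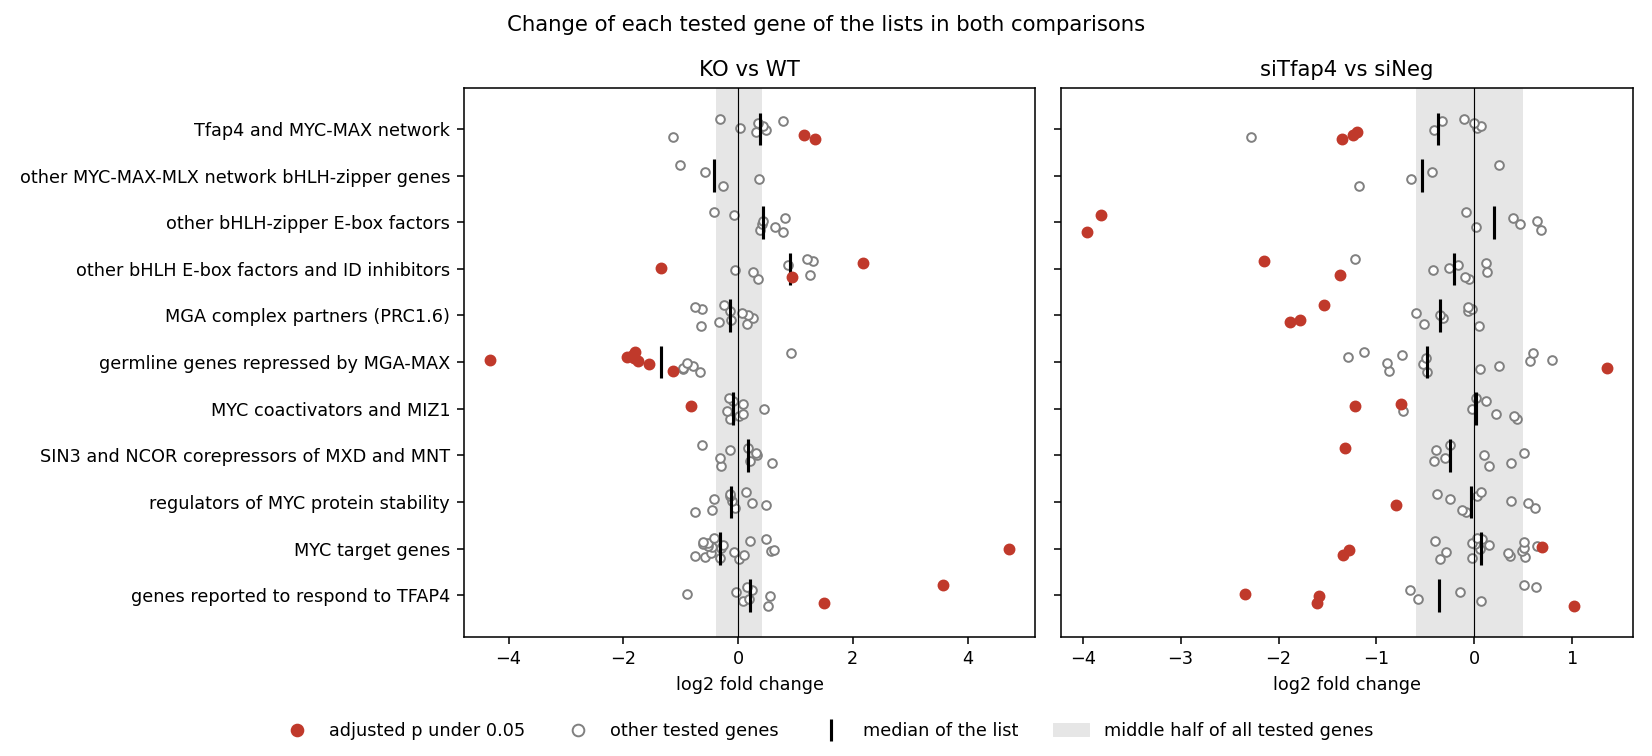
Log2 fold change of every tested gene of each list (points; red where the adjusted p is under 0.05), with the median of the list (black line) and the middle part of all tested genes, between their quartiles (grey band), in KO against WT (left) and siTfap4 against siNeg (right). The germline list has its median at -1.34 in the left panel, and the MYC target list has medians of -0.31 and 0.07.

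The E-box words were also counted in the 10553 tested genes that have a promoter window. In KO against WT these were 658 genes called higher, 403 called lower and 9492 not called, and in siTfap4 against siNeg 478, 1268 and 8807. CAGCTG was present in 23.4% of the genes called higher in KO, in 22.1% of those called lower and in 17.8% of those not called. In siTfap4 it was present in 20.3% of the genes called higher, in 15.1% of those called lower and in 18.6% of those not called. CACGTG was present in 8.97% of the genes called higher in KO, in 12.9% of those called lower and in 11.9% of those not called, and in siTfap4 in 13.6%, 12.5% and 11.6% of the same classes. These shares are descriptions with no test.

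Some counts may hold reads of a neighbour, because the strand setting of the counting is not given in the sources used here. Mxd3 overlaps Prelid1 on the opposite strand (13820 counts over the 8 libraries), and Mlx overlaps Psmc3ip (1493 counts), while the overlaps of Max, Mxi1 and Mxd4 are with genes of at most 35 counts. In the sense direction, none of the 10 genes shared its last 200 bases with another gene at a word length of 31 bases. The opposite strand was not searched. The annotated 3′ ends of Mlx and Mxd3 lie inside Psmc3ip and Prelid1, so antisense reads at these ends are not excluded.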

How the data were processed

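The authors deposited whole-number counts per Ensembl gene for the 8 libraries, made with a QuantSeq 3′ mRNA kit from polyadenylated RNA per the labels' protocols. Trim Galore and the build GRCm38 are named in the submitters' processing notes. The sources used here do not give the aligner, the counter, its strand setting or the annotation. The kit reads transcript ends, so levels were not divided by length.

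Of the 55421 identifiers, 99.5% had a symbol (GENCODE vM21) and 267 had none. Every value column was used (0 others). The main test was edgeR 4.0.16 in R 4.3.3: filterByExpr, TMM factors, a robust quasi-likelihood fit with 4 group means over all 8 libraries (4 residual degrees of freedom), two-sided, with Benjamini-Hochberg adjustment over 15137 genes and a threshold of 0.05. CPM used TMM-scaled totals. The spread is thus pooled over the untreated and siPOOL sets. The chi-square per degree of freedom between duplicates was 12.4 in KO, 20.8 in WT, 34.1 in siTfap4 and 42.0 in siNeg, so duplicates differed beyond counting error. The GC correction was a lowess curve per library (span 0.3) over the last 100 bases, used as an offset. 15081 of the tested genes had a value.

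The members, lists and tests were chosen with earlier results of these data known. Named genes are the 10 members, up to 4 called genes of each list per comparison (smallest adjusted p) or its 2 most abundant genes where it has no call, and the 5 most and 2 least like Tfap4. Some other listed genes are named because an alternative fit called them. These were chosen after their values were seen, and not every such gene is named. Alternatives were DESeq2 1.42.0, limma-voom (limma 3.58.1), no filter, a filter of at least 1 CPM in 2 libraries, the 4 libraries of a comparison alone, a replicate block, and leaving out each library, where the lone library of a group is assumed to vary like the others. The fit was tested on simulated data.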

Additional observations from a re-analysis of the deposited data

How the results depend on the processing

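The 2 and 3 genes called among the 10 kept their direction under DESeq2, limma-voom, both other filters, the 4 libraries of a comparison alone, the replicate block and each left-out library. With single libraries left out, in KO against WT the count of the 10 genes called ran from 0 (without KO 1) to 2, that of all genes from 629 to 1566 against 1506 (at most 880 with 1 of the 4 untreated libraries left out), and that of the 132 listed genes from 12 to 25 against 25. In siTfap4 against siNeg these ranges over left-out libraries were 0 (without siTfap4 1) to 3, 522 (without siTfap4 1; 762 without siNeg 1) to 2961 against 2334, and 8 to 31 against 22. Over the other alternatives KO against WT had 1337 to 1861 genes called and 22 to 30 listed genes, and siTfap4 against siNeg 1793 to 2705 and 19 to 27. Using the 4 libraries of a comparison alone called 1861 genes in KO against WT and 1793 in siTfap4 against siNeg, where 324 were higher, against 660. Differences between replicates 1 and 2 correlated across genes at -0.06 in KO and WT and at 0.13 in siTfap4 and siNeg. With 2 pairs each, and GC trends that differ between libraries, these values cannot settle whether replicate numbers pair the samples. With the replicate block 1337 and 2064 genes were called, 2 and 3 of them among the 10. The correction for GC called 1569 and 1836 genes without the block and 1722 and 2196 with it.

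Values near 0 changed sign. In KO against WT, leaving out libraries gave log2 fold changes between -0.20 and 1.31 for Mxd4, -0.039 and 0.19 for Cbx1, -0.0010 and 0.67 for Mxd1, -0.26 and 0.0018 for Plk1, and -0.45 and 0.022 for Wdr5. In siTfap4 against siNeg it gave values between -0.25 and 0.33 for Mga, -0.10 and 0.24 for Mxi1, -0.31 and 0.22 for Mxd4, -0.84 and 0.022 for Mxd3, -0.35 and 0.17 for Mlx, -0.88 and 1.10 for Col4a1, and -5.37 and 0.84 for Pdgfra, where siTfap4 1 has 0 counts. Mga had -0.011 with no filter, -0.0014 with the 4 libraries alone, -0.22 with the GC correction and -0.20 with that and the replicate block. These 2 corrections gave Mlx 0.41 and 0.42 and Pdgfra 0.38 and 0.23. Col4a1 had 0.024 by limma-voom and 0.081 with GC correction and block. The cause was not tested.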
